A study of Mus musculus with 10 samples.

Results

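The genes studied here are those of potassium channels and of HCN channels, the cation channels opened by hyperpolarisation, whose transcripts carried an m6A peak in mouse brain. They were taken by name, as every gene in either of 2 peak lists whose symbol begins with Kcn or with Hcn and a digit. Kcnq1ot1, a noncoding RNA named after a channel gene, was left out. This gave 59 genes of the 8516 in the lists, of which 58 encode channel proteins or their partners, and 1, Kcnmb4os2, is a noncoding RNA transcribed opposite a channel gene. A gene needed a peak to be a member, so the rule says nothing of channel transcripts without one.

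Methylated RNA was mapped at postnatal day 5 in the cortex and hippocampus of animals from which Nestin-Cre had removed Mettl14 (KO) and of wild-type animals (WT). Nestin-Cre is a recombinase active in the neural lineage, so cells of other lineages in the tissue are not its target. Libraries from RNA pulled down with an antibody against N6-methyladenosine (m6A) and from unselected input RNA numbered 2 and 2 in KO and 3 and 3 in WT. The labels also name a culture medium, so whether RNA was taken straight from tissue is unsettled. The sources used here do not give the exact alleles or how libraries relate to separate animals. The values were a single consensus peak list per genotype, with no value per library. No difference between the genotypes therefore has a replicate error, and the intervals below reflect only the counting of peaks or genes. Depth per library is unknown, and the lists hold no expression levels with which to check the tissue. A peak can be unlisted because the RNA was less methylated or because it was less abundant, through fewer cells of a type or less RNA per cell. It can also be missed where a list rests on fewer libraries or fewer reads. The KO list rests on 2 pulldown libraries, against 3 in WT, and none of these can be told apart here. Mettl14 itself had 0 peaks in the KO list and 1 in the WT list, which does not measure its expression. Coordinates are those of GRCm38, counted from 1.

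METTL14 and METTL3 form the core of the complex that writes most m6A on messenger RNA, and the mark influences how long a transcript lasts, where it goes and how it is translated. Potassium channels set the resting potential of a neuron, end its action potentials and shape its firing, while HCN channels carry a depolarising current near rest. Voltage-gated potassium channels are built from 4 pore subunits, often mixed within a subfamily, and join auxiliary subunits that change their gating or their place in the membrane. Inward rectifiers and K2P leak channels work near the resting potential, and some inward rectifiers are opened by G proteins or closed by ATP.

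Stretches at annotated transcript starts are the only places where deposited positions could be set against sequence. RefSeq windows on GRCm38.p6 run from 250 bases before to 50 bases after each annotated start. No channel peak of the KO list reached at least 10 bases into a window of its gene (0 of 9 genes with a peak and a window, which allows up to 33.3%). Peaks of the WT list did so in 4 of 39 channel genes (10.3%), beside 5.93% of all such genes in the KO list and 11.2% in the WT list. The longest such overlap was in Kcnk2, which encodes a mechanically gated leak channel. It is shown from 250 bases before to 30 bases after the annotated start (chr1:189343324-189343603, minus strand), with the bases inside the WT peak in capitals.

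Kcnk2: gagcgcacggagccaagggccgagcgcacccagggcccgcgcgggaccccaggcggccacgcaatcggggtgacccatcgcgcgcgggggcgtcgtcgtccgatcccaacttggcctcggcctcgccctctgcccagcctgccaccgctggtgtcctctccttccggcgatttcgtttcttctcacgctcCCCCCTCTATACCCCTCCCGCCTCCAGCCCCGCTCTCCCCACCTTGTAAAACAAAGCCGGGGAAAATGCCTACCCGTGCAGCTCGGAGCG

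The other stretches inside such WT peaks are shown to compare starts of a leak, a Kv7 and an auxiliary subunit gene, with any GGAC, a common core of m6A sites, in capitals. They are a Kcnk12 stretch of 20 bases (chr17:87797945-87797964), a Kcnq5 stretch of 30 bases (chr1:21961913-21961942) and a Kcnab2 stretch of 30 bases (chr4:152477520-152477549), all on the minus strand. The Kcnk2 and Kcnq5 starts used, at 189343353 and 21961942, lie inside their genes, whose spans begin at 189402782 and 21962650.
Kcnk12: aacaGGACtgctcgcacagc
Kcnq5: tgggtgtgcacgcgtgcgagcgtgcctccg
Kcnab2: ggggcgtggccgagggagtcccacgaggta

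The motif GGAC was searched on both strands of the stretch of each window that lies in the peak, with no other motif. On the strand of the RNA it was found 1 time in Kcnk12 and not in the stretches of 110 bases of Kcnk2, 70 bases of Kcnq5 or 50 bases of Kcnab2. On the other strand it was found 1 time, in Kcnab2. The same stretch held it on the RNA strand in 7.64% of all 32851 windows for Kcnk12, 34.4% for Kcnk2, 24.4% for Kcnq5 and 18.9% for Kcnab2. On either strand these shares were 14.5%, 56.7%, 42.2% and 33.3% in the same order. A match is a description of letters, and most of each peak lay outside its window.

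The comparison of the lists asked which channel m6A peaks were still listed without Mettl14. The KO list held 12 channel peaks in 11 genes, against 147 peaks in 58 genes in the WT list. Their summed exonic length was 1987 bases in KO and 40253 bases in WT. Peaks were listed in WT alone for 48 channel genes, in both lists for 10 and in KO alone for 1, Kcnj2. The whole KO list was the smaller one too, with 3673 peaks over 649987 bases, against 15009 peaks over 3913540 bases in WT. Of all 8516 genes, 5637 had peaks in WT alone, 2080 in both lists and 799 in KO alone. A WT peak is called retained here when a KO peak on the same strand shared 1 or more of its exonic bases, and lost when none did.

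Of the 147 WT channel peaks, 7 were retained (4.76%, Wilson 95% interval 2.33 to 9.50) and 140 were lost, beside a background of 12.9% retained over all 15009 WT peaks. A retained peak was found in 7 of 58 channel genes (12.1%, interval 5.97 to 22.9), beside 20.6% of all 7717 genes with a WT peak. Any KO peak was found in 10 of the 58, beside 27.0% of all genes with a WT peak. In the other direction, 7 of the 12 KO channel peaks lay over a WT peak (58.3%, interval 32.0 to 80.7), beside 57.1% of all KO peaks. The retained share of channel peaks was thus below that of the whole list, and the share of KO peaks over a WT peak was near it. Whether channel genes as a group differ from other genes was not tested. Only Kcnj3 and Kcnk2 still counted as retained when 50% of the WT peak had to be covered, which gave 2 of 147 peaks (1.36%), beside 6.83% over all genes.

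Channel genes were often among the genes with a WT peak. Of 98 protein-coding RefSeq genes with a name of this kind, 11 had a KO peak (11.2%, interval 6.38 to 19.0), beside 12.2% of all protein-coding genes. A WT peak was listed for 57 of the 98 (58.2%, interval 48.3 to 67.4), beside 34.2% of all protein-coding genes. A channel gene with a peak carried 1.09 peaks on average in KO and 2.53 in WT, beside 1.28 and 1.95 over all genes.

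**Figure D1:**
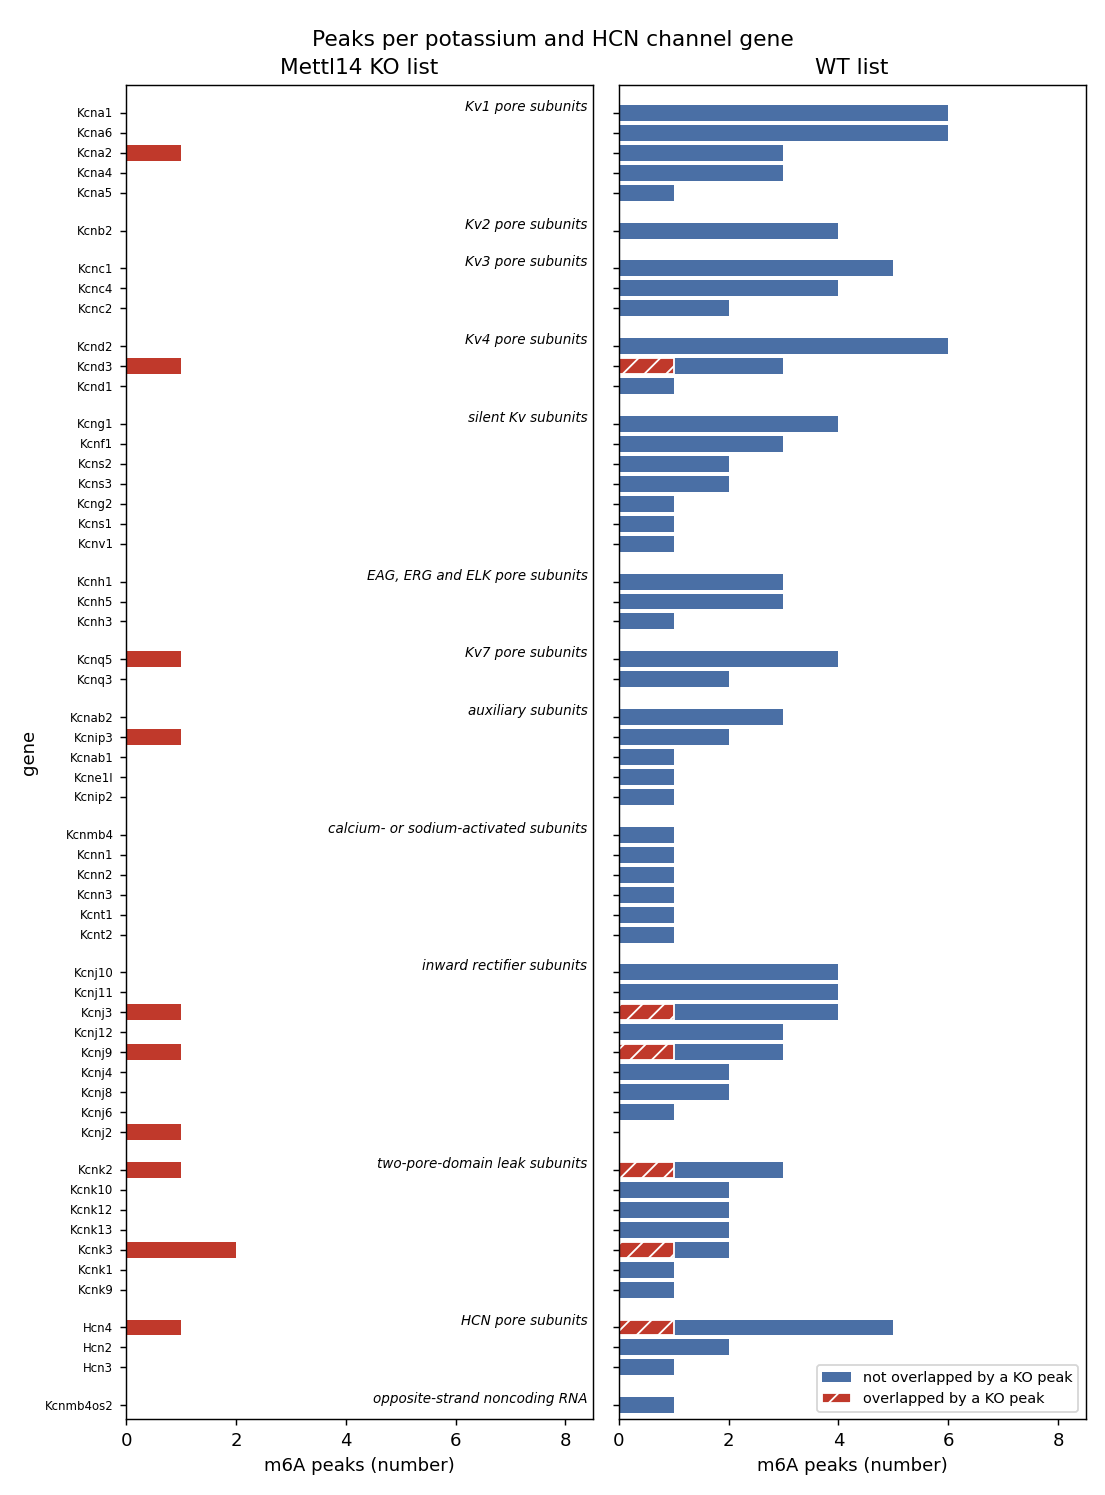
Number of m6A peaks in each of 55 channel genes, grouped by role, with the Mettl14 KO list at left and the WT list at right. Hatched parts of the WT bars are peaks overlapped by a KO peak. No KO bar is longer than 2 peaks, while Kcna1, Kcna6 and Kcnd2 reach 6 in WT.

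Pore subunits of voltage-gated channels held most of the WT channel peaks and 4 of the 12 KO channel peaks. Their 27 genes, silent subunits included, had 4 KO peaks in 4 genes, against 85 WT peaks in all 27 genes, of which 2 peaks were retained (2.35%, beside 12.9% of all WT peaks). The Kv1 genes encode low-threshold channels of axons and of nodal regions. Their 5 members had 1 KO peak, against 19 WT peaks, none of them retained. Kcna6 had 0 KO peaks, against 6 WT peaks over 2729 exonic bases, the largest peak length of any channel gene. Kcna1, a gene of human episodic ataxia, had 0 KO peaks, against 6 WT peaks over 906 bases. Both genes had equal peak numbers, but the peaks of Kcna1 were shorter. Kcna4 and Kcna5 had 0 KO peaks, against 3 and 1 WT peaks, and Kcna2 had 1 KO peak, against 3 WT peaks over 573 bases.

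The Kv2 genes encode the main delayed rectifiers of neuronal cell bodies. Kcnb2 had 0 KO peaks, against 4 WT peaks over 723 bases. The 7 silent subunit genes, whose products do not form channels alone but modify Kv2 channels, likewise had 0 KO peaks, against 14 WT peaks. A KO peak was found in 27.0% of all genes with a WT peak, and 0 of 7 rests on few counts. Among the silent subunit genes Kcng1 had 4 WT peaks over 924 bases and Kcnf1 had 3 over 1351 bases. Kcns2 and Kcns3 had 2 each, and Kcng2, Kcns1 and Kcnv1 had 1 each.

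Kv3 channels allow fast spiking. Of their genes described here, Kcnc1, Kcnc4 and Kcnc2 had 0 KO peaks, against 5, 4 and 2 WT peaks. Over all genes with a WT peak, 27.0% had a KO peak, and these zeros rest on few genes. The Kv4 genes encode the A-type channels of dendrites, and 1 of them kept a peak. Kcnd3 had 1 KO peak over 211 bases, against 3 WT peaks over 902 bases, of which 1 was retained. Its close relative Kcnd2 had 0 KO peaks, against 6 WT peaks over 1326 bases. Of these, 3 lay between 21215496 and 21216905 on chromosome 6, close to the annotated gene start at 21215346, and 3 toward its far end. Kcnd1 had 0 KO peaks, against 1 WT peak.

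Kv7 channels carry the M current, which restrains repetitive firing. Kcnq3 had 0 KO peaks, against 2 WT peaks over 480 bases. Kcnq5 had 1 KO peak, against 4 WT peaks, none of them retained. The EAG and ELK genes Kcnh1, Kcnh5 and Kcnh3 had 0 KO peaks, against 3, 3 and 1 WT peaks, and those of Kcnh1 summed to 1320 bases.

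Auxiliary and calcium- or sodium-activated subunits had few peaks in either list. Kcnip3, which encodes a calcium-binding partner of Kv4 channels also known as DREAM, had 1 KO peak, against 2 WT peaks, none of them retained. Kcnab2, a Kv1 beta subunit gene, had 0 KO peaks, against 3 WT peaks over 363 bases. Kcnab1, Kcnip2 and Kcne1l had 0 KO peaks and 1 WT peak each. The 6 calcium- or sodium-activated members, Kcnn1, Kcnn2, Kcnn3, Kcnt1, Kcnt2 and Kcnmb4, also had 0 KO peaks and 1 WT peak each. A retained peak was found in 10.5% of all genes with 1 WT peak, and 0 of 6 rests on few counts. The longest of the 6 WT peaks was in Kcnn1, with 419 bases, and the strongest was in Kcnmb4, with a listed p-value of 1e-239. The noncoding Kcnmb4os2 had 0 KO peaks, against 1 WT peak of 414 bases.

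Inward rectifier and K2P leak genes, 16 in all, had 6 KO peaks in 5 genes, against 36 WT peaks in 15 genes. Of these WT peaks, 4 were retained (11.1%), near the 12.9% of all WT peaks. Of the genes for G protein-gated rectifiers, Kcnj3 had 1 KO peak over 180 bases, against 4 WT peaks over 1651 bases, of which 1 was retained. Kcnj9 had 1 KO peak over 121 bases, against 3 WT peaks over 1347 bases, of which 1 was retained. Kcnj6, whose product assembles with these, had 0 KO peaks, against 1 WT peak of 151 bases.

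Strong rectifier genes of the Kir2 group differed in the list that named them. Kcnj2 had 1 KO peak of 151 bases and 0 WT peaks. Kcnj4 had 0 KO peaks, against 2 WT peaks over 1496 bases, and Kcnj12 had 0, against 3 over 512. Kcnj10, the rectifier of astrocytes, had 0 KO peaks, against 4 WT peaks over 1110 bases. The genes of ATP-sensitive channels, Kcnj11 and Kcnj8, had 0 KO peaks, against 4 and 2 WT peaks.

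Among the leak channels, Kcnk2 had 1 KO peak over 210 bases, against 3 WT peaks over 810 bases, of which 1 was retained. Its relative Kcnk10 had 0 KO peaks, against 2 WT peaks over 480 bases. Kcnk3, which encodes an acid-sensitive leak channel, had 2 KO peaks over 302 bases, against 2 WT peaks over 602 bases, of which 1 was retained. Kcnk3 was the channel gene with most KO peaks, and the only one with as many KO as WT peaks. Its relative Kcnk9 had 0 KO peaks, against 1 WT peak. Kcnk12 and Kcnk13 had 0 KO peaks, against 2 WT peaks each, and Kcnk1 had 0, against 1.

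Of the HCN genes described here, 1 had a KO peak. Hcn4, whose product carries the pacemaker current of the heart, had 1 KO peak over 150 bases, against 5 WT peaks over 1830 bases, of which 1 was retained. Hcn2 had 0 KO peaks, against 2 WT peaks over 480 bases, and Hcn3 had 0, against 1 of 181 bases.

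Each of the 7 retained peaks was matched by a narrower KO peak. In 6 of them the KO peak lay wholly inside the WT peak. The fullest overlap was in Kcnj3, on chromosome 2 from 55597546 to 55597725 in KO, against 55597516 to 55597785 in WT, so that 66.7% of the WT peak was covered. Its midpoint lay 495 bases before the annotated gene end in the WT list, and it was the retained peak nearest to a gene end. In Kcnk2 the KO peak ran from 189343084 to 189343293 on chromosome 1, against 189343054 to 189343413 in WT, and covered 58.3%. Counted along the gene, the KO peak began 60 bases after the annotated start shown above, while the WT peak began 60 bases before it. RefSeq gives 3 further Kcnk2 starts upstream, at 189343707, 189344192 and 189402273. A noncoding gene on the other strand, A430027H14Rik, spans the same place, and the sources used here do not say whether reads were assigned by strand.

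The other overlaps described here covered less than 50% of the WT peak. In Kcnk3 the peak ran from 30622841 to 30622991 on chromosome 5 in KO, against 30622841 to 30623201 in WT, with the same upstream border (41.8% covered). Kcnd3 also kept its upstream border, at 105668232 on chromosome 3. There 211 bases on 2 exonic blocks were listed in KO, against 690 bases on 2 blocks in WT (30.6% covered). In Hcn4 a KO peak from 58859436 to 58859585 on chromosome 9 covered 23.8% of a WT peak from 58859346 to 58859974. In Kcnj9 a KO peak of 121 bases, from 172322688 to 172322808 on chromosome 1, covered 16.2% of a WT peak of 748 bases on 2 blocks.

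**Figure D2:**
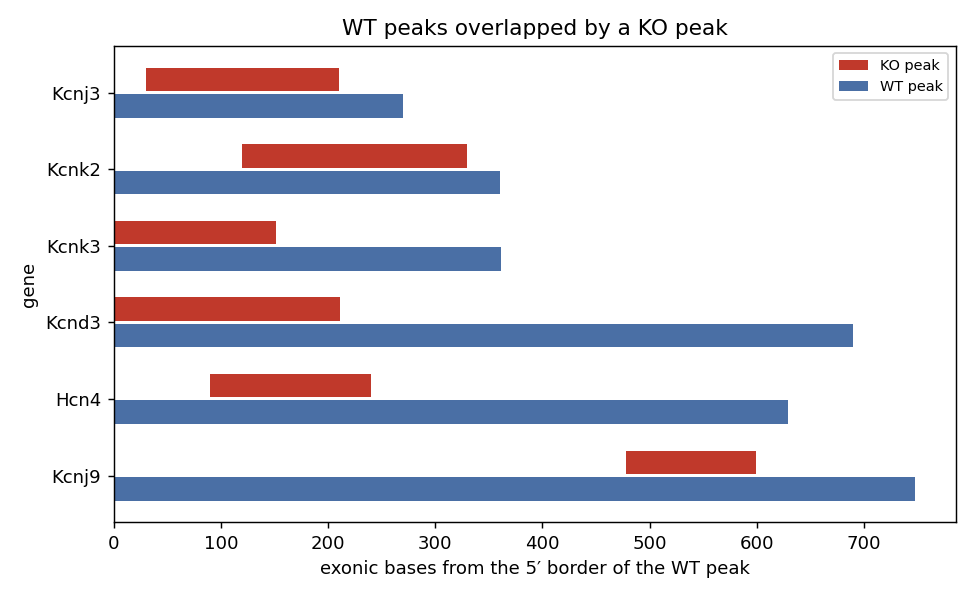
WT channel peaks overlapped by a KO peak in 6 genes, drawn in exonic bases from the 5′ border of the WT peak, with the KO peak above the WT peak of each gene. The overlap covers between 16.2% of the WT peak, in Kcnj9, and 66.7%, in Kcnj3, and each KO peak drawn lies inside its WT peak.

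By the p-value in the authors' deposited lists, the KO peaks of channel genes ranged widely. That of Kcnk2 was the strongest, at 1e-123, with 6.26% of KO peaks stronger. That of Kcnj3 followed at 4e-47, with 15.4% stronger. The weakest was that of Kcnj9, at 6.8e-08, with 94.2% of KO peaks stronger. In the WT list the same 3 genes had retained peaks at 1e-150, 1e-229 and 1e-165. The lists rest on unequal numbers of libraries, so p-values rank peaks within a list only.

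Retained channel peaks were wider and stronger in the WT list than most lost ones. Their median exonic width was 361 bases (range 270 to 748), against 211 bases (60 to 1166) for lost peaks. The median share of WT peaks stronger than them was 17.9% (8.58 to 59.2), against 60.9% (0 to 99.7) for lost peaks. Both ranges overlapped, and a KO peak is more likely to touch a WT peak that is wide. Strong or wide peaks were lost as well. Of the 5 channel peaks in the strongest 10% of the WT list, 1 was retained, that of Kcnj3, beside 40.2% of all WT peaks in that class. The lost ones included the Kcnmb4 peak and 2 Kcna6 peaks. The widest lost peaks were in Kcnj4 (1166 bases), Kcna6 (1139) and Kcnf1 (899).

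**Figure D3:**
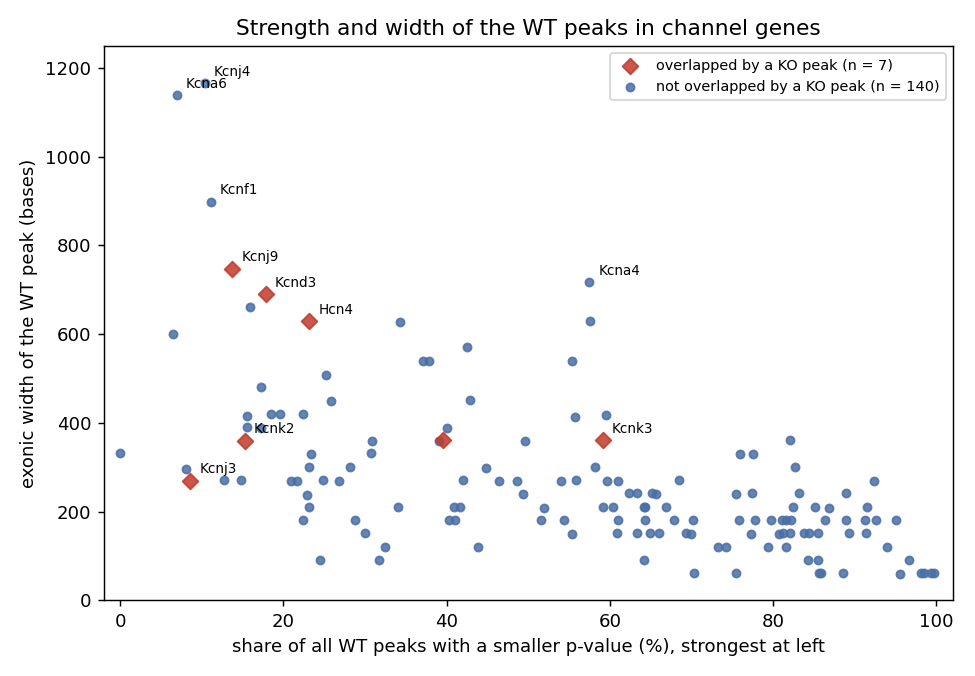
Exonic width in bases against the share of all WT peaks with a smaller listed p-value, for the 147 WT peaks of channel genes. Diamonds are the 7 peaks overlapped by a KO peak and circles the 140 others. The diamonds lie at 270 bases or more, and 6 of them in the stronger 50% of the list, among many circles.

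Channel WT peaks ranked weaker by listed p-value than the list as a whole and lay on fewer exonic blocks. Such a rank is not a level of methylation, and expression is unknown. The median share of WT peaks stronger than a channel peak was 59.5%, and 31.3% of channel peaks (46 of 147, interval 24.4 to 39.2) belonged to the strongest 40%. Only 9.52% lay on 2 or more blocks (14 of 147, interval 5.76 to 15.3), beside 23.5% of all WT peaks. In width they were close to all WT peaks, with a median of 211 bases beside 208. Whether this mix of peaks relates to the retained share was not tested. Within classes of strength, width and blocks, taken 1 at a time, the retained share of channel peaks was the lower one. It was 13.0% in the strongest 40% (6 of 46, interval 6.12 to 25.7), beside 22.4% over all genes, and 3.45% in the middle 20% (1 of 29), beside 9.48%. In the weakest 40% it was 0 of 72, beside 4.97%. The upper limit for that 0 was 4.17% by 3 counts of the total and 5.07% by the Wilson interval, on either side of the value of all genes.

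Width and number of blocks gave similar pictures. Of peaks at least 300 bases wide, 6 of 44 channel peaks were retained (13.6%, interval 6.40 to 26.7), beside 27.3% over all genes. Of narrower peaks, 1 of 103 was retained (0.971%, interval 0.172 to 5.30), beside 7.22%. Of peaks on 2 or more blocks, 2 of 14 were retained, those of Kcnd3 and Kcnj9, beside 28.9%, and of peaks on 1 block 5 of 133 (3.76%), beside 7.97%. The interval for channel peaks included the value of all genes for the strongest and middle strength classes and for both block classes, and lay below it for both width classes. Peaks of a gene share their transcript and are not independent, and no test was made.

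**Figure D4:**
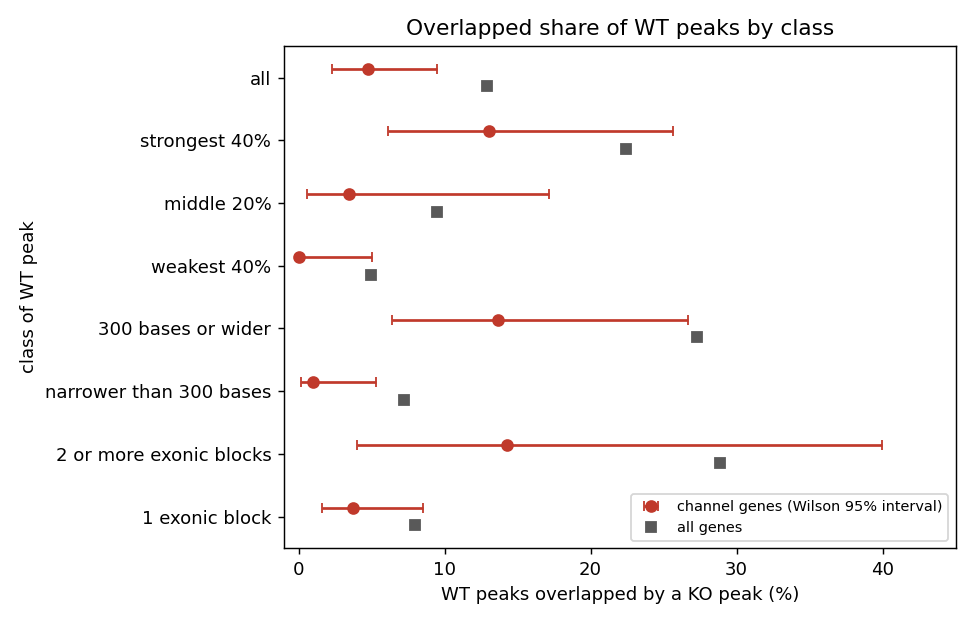
Share of WT peaks overlapped by a KO peak, in percent, for channel genes (circles, Wilson 95% intervals) and for all genes (squares), over the whole list and by class of strength, width and number of exonic blocks. Each circle stands at a smaller share than its square, and the intervals are wide because the classes hold 14 to 133 channel peaks.

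Genes with few WT peaks rarely kept one. None of the 20 channel genes with 1 WT peak had a retained peak, which allows up to 15%, beside 10.5% of all such genes. It was 1 of 12 genes with 2 WT peaks, beside 22.7%, and 4 of 13 with 3, beside 33.8%. With 4 or more it was 2 of 13, Hcn4 and Kcnj3, beside 46.0%. Each of the 7 genes kept exactly 1 peak. In the whole list the share grew with the number of peaks. In channel genes it was highest among genes with 3, but 4 of 13 against 2 of 13 rests on few genes.

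The 5 KO peaks that covered no WT peak lay in Kcna2, Kcnip3, Kcnj2, Kcnk3 and Kcnq5. The Kcnk3 peak, from 30623470 to 30623620 on chromosome 5, lay 268 bases from the nearest WT peak of its gene. That of Kcnip3, from 127458177 to 127458296 on chromosome 2, lay 419 bases away, and that of Kcnq5, from 21400524 to 21400703 on chromosome 1, lay 867 bases away, between 2 WT peaks. That of Kcna2, a Kv1 gene, lay 3440 bases away, from 107107823 to 107108003 on chromosome 3. In these 4 genes the WT peaks lay elsewhere in the same gene. Kcnj2, a gene of cardiac and neuronal resting current, had its peak from 111075508 to 111075658 on chromosome 11, with a listed p-value of 6.3e-15. The same p-value is listed for 50 of the 3673 KO peaks. A KO gene without a WT peak was 1 of 11 here, beside 27.8% of all genes with a KO peak.

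Positions were taken as the midpoint of a peak's whole span, introns included, and set against the ends of each annotated gene. A peak touching a gene start can thus have its midpoint farther away, as the 2-block Kcnab2 peak did, 12303 bases from it. Within 1000 bases of the annotated gene end lay 1 of 12 KO channel peaks, that of Kcnj3, and 22 of 147 WT channel peaks (15.0%, interval 10.1 to 21.6), beside 16.1% and 15.9% of all peaks. The WT share was near that of its whole list. Within 200 bases of the gene start lay 0 of 12 KO channel peaks, which allows up to 25%, and 1 of 147 in WT (0.680%, interval 0.120 to 3.75), beside 3.38% of all peaks in each list. The WT share of midpoints near gene starts was thus the lower one, but it rests on 1 peak and its interval included 3.38%. By overlap with the windows at annotated starts, WT peaks reached 4 of 39 channel genes (10.3%), near the 11.2% of all such genes.

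Partners of the channels followed both courses. The 27 genes listed as partners encode membrane, scaffold and calcium-sensing proteins that bind these channels. Of them, 6 had a KO peak and 19 had a WT peak, and 8 of 48 WT peaks (16.7%), in 4 of the 19 genes (21.1%), were retained, near the 12.9% of all WT peaks and the 20.6% of all genes with a WT peak. Akap9, a scaffold of Kv7 signalling, had 4 KO peaks over 661 bases, against 7 WT peaks over 3032 bases, of which 4 were retained. The calmodulin genes Calm3 and Calm2 had 2 and 1 KO peaks, against 2 and 1 WT peaks, all retained. Dlg4, the scaffold PSD-95, had 2 KO peaks, against 2 WT peaks, of which 1 was retained. Ank3, the ankyrin that holds Kv7 channels at the axon initial segment, had 1 KO peak, against 6 WT peaks, none of them retained. Dlg2 had 1 KO peak and 0 WT peaks. Other partners, picked as examples, were Dpp6 and Dpp10 for Kv4, Amigo1 for Kv2 and Pex5l for HCN channels. They had 0 KO peaks, against 3, 1, 4 and 1 WT peaks, beside a KO peak in 27.0% of all genes with a WT peak.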

How the data were processed

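The authors deposited 1 consensus peak list per genotype, with position, strand, gene symbol and exonic blocks of each peak. Per the submitters' processing notes, STAR and GRCm38 were used. The sources used here name no peak caller or threshold and do not say how libraries were combined. The deposited score was read as a p-value or q-value from its range, and which of both it is, is not stated. Libraries were grouped by their titles. Members and lists were chosen with earlier results of these data known.

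The KO and WT lists held 3733 and 15091 entries. Entries that shared exonic bases on a strand were merged, giving 3673 and 15009 peaks, and the 12 KO and 147 WT entries of channel genes stayed as they were. All 59 symbols were found in the RefSeq gene table of GRCm38.p6, which gave gene spans. Strength is the share of a list with a smaller p-value. Intervals are Wilson 95% intervals (SciPy 1.17.1, Python 3.11.15), and a count of 0 allows 3 counts of the total. No test was made, since lists without values per library allow none between genotypes. Overlap calling was tested on simulated data. Alternatives changed the overlap, strand, peak extent, merging and list length.

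Named genes were members with a retained peak, a KO peak elsewhere or a KO peak alone, the 10 with most WT peaks, the HCN genes, the leading gene of each role, and partners with a retained peak or most WT peaks. Some genes that this rule takes are not reported here, though they remain in the counts. Other genes are named to account for the members or as examples of partners. Those singled out for strength or width, such as Kcnmb4, Kcnj4 and Kcnf1, were chosen after their values were seen.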

Additional observations from a re-analysis of the deposited data

How the results depend on the processing

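No paired analysis was possible because each genotype has a single pooled list, which also left no replicate to leave out. Of 24 alternative values of the 3 shares and counts, 17 stayed within the interval of a share or within 1.5 times of a count. These included all values with either strand, with whole spans, with unmerged entries and with peaks up to 100 bases apart joined, a setting chosen after seeing the data. Merging left the channel entries as they were, so their unmerged values could not differ. The retained share of 4.76% of WT channel peaks was 1.36% both with 50% of the WT peak covered and with 50% of both peaks shared, where fewer overlaps qualify. It was 17.9% when only the 3673 strongest WT peaks were kept, beside 28.6% over all genes. The 7 genes with a retained peak were 2 under either 50% rule, Kcnj3 and Kcnk2, and 4 with the stronger 50% of each list, Hcn4, Kcnd3, Kcnj3 and Kcnk2. The last is 4 of 34 genes with a WT peak (11.8%, beside 19.3% over all genes), against 7 of 58 (12.1%) as reported, since fewer genes enter. The share of KO channel peaks over a WT peak, 58.3%, was 16.7% for 50% of both peaks. With 12 KO peaks these shares rest on few counts, and depth, expression and the spread between animals are unknown.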

Other observations

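Of 101 RefSeq symbols that match the naming rule, 42 had no peak in either list used here. They include Kcnma1, the pore gene of BK channels, the ERG gene Kcnh2, the Kv7 gene Kcnq1, the Kv4 partner genes Kcnip1 and Kcnip4, and 7 of the 14 K2P genes. A missing peak does not show a missing mark, since expression is unknown. All 3 genes of the Kv4 group had a WT peak.

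Some channel genes with peaks lie on the same stretch of a chromosome. Kcna5, Kcna1 and Kcna6 lie within 208.3 kb on chromosome 6 (126532551 to 126740834), with 0 KO peaks, against 13 WT peaks over 3904 exonic bases. Kcnj9 and Kcnj10 lie 11887 bases apart on chromosome 1, on opposite strands, with 1 KO peak in Kcnj9 alone, against 3 and 4 WT peaks. Kcnj11 and Kcnc1 lie farther apart, 295266 bases, on chromosome 7 and had 0 KO peaks, against 9 WT peaks together. Of the 159 channel peaks in both lists, 13 lie over the span of another RefSeq gene, among them all 6 WT peaks of Kcna6 over Gm33581, a gene whose annotated start is on the other strand.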
